A study of Homo sapiens with 13 samples.

Results

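The comparison described here is that of HEK293T cells transfected with an siRNA against WIZ and HEK293T cells transfected with a scrambled control siRNA, both taken at 72 h. Its members are the 4 of the 13 arrays of the study whose titles name the WIZ siRNA. They cover 2 biological replicates, each hybridised once with the WIZ siRNA RNA in Cy3 and the control RNA in Cy5, and once with the dyes exchanged. HEK293T cells derive from embryonic human kidney and express the large T antigen of SV40, and both groups compared share that background, the siRNA supplier (Dharmacon) and the lipid transfection reagent. The other 9 arrays hold UNC0638, an inhibitor of G9a and GLP, at 1 µM for 48 h against DMSO (5 replicates on 7 arrays) and G9a siRNA against control siRNA at 72 h (2 replicates on 2 arrays). The siRNA sequences, and whether several siRNAs were pooled, are not given in the sources used here, so effects of the siRNA on other transcripts cannot be told apart from those of lower WIZ RNA.

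WIZ is a zinc finger protein that binds a pair of histone methyltransferases, G9a, encoded by EHMT2, and GLP, encoded by EHMT1. These enzymes form a heterodimer that places mono- and dimethyl groups on lysine 9 of histone H3, a mark associated with silent chromatin, and WIZ is thought to stabilise the complex and to link it to the CtBP corepressors. In HEK293T cells, which express many genes otherwise typical of neurons, the question put by the design is which transcripts follow the loss of WIZ, and which follow the loss of G9a or of the enzymatic activity.

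All values are log2 ratios of WIZ siRNA RNA over control RNA, so that a negative value means less RNA after knockdown. On the 4 arrays the median spot was 240 to 308 units bright in Cy3, where the local background was 28 to 30, and 331 to 468 in Cy5, where it was 60 to 68. The share of probes above background by more than 2.6 background SDs in a given RNA ran from 57.93% to 84%. By that measure all 11 markers of HEK293T cells were detected on all 4 arrays in the control RNA, among them VIM, KRT8, LHX1 and LIN28B. Markers of other cell types do not separate from these on such a threshold: 5 of 7 blood, 1 of 3 liver, 1 of 5 fibroblast, 1 of 3 endothelial, 2 of 3 glial and 2 of 3 epithelial markers were also detected on all 4. Of this short panel, none of the tested markers of other cell types changed under WIZ siRNA, and the lowest log2 ratio among them was -0.49 (MBP). The number of arrays limits the precision. Fewer cells expressing a gene and less RNA per cell cannot be told apart in these bulk samples.

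The WIZ transcript was lower in both replicates and in both dye orientations. Its probe, in the 60 bases chr19:15532937-15532996 (minus strand, build 37.1 as in the files), read -2.33 and -2.20 in replicate 1 with the WIZ siRNA RNA in Cy3 and in Cy5, and -2.01 and -1.93 in replicate 2. The 4 values lie close together, and the dye made a difference of 0.11. The replicate means of -2.26 and -1.97 gave a log2 ratio of -2.12 (SD 0.209, n = 2; SE 0.183), which left 23.1% of the control level (limma, adjusted p = 0.0014). The same probe stood at -0.13 under UNC0638 and at 0.12 and 0.05 in the G9a siRNA replicates.

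Over all 28548 tested features, 183 (0.641%) changed at an adjusted p below 0.05 in the limma fit. Of these, 160 (0.56%) fell and 23 (0.0806%) rose. The falls were also larger: 25 features fell at least 2-fold, 22 of them with a gene symbol, and no feature rose that far. The median log2 ratio was -0.69 among the falls and 0.55 among the rises, against 0.01 over all features. Gene symbols were available for 168 of the 183, namely 148 that fell and 20 that rose. All 183 had the same sign in both replicates, as 72.7% of all features did. Being called on the mean of both replicates favours such features, so this is no separate evidence. With an unadjusted p under 0.05 there were 1465 lower and 844 higher features.

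The count depends on whose spread is used for the test. The fit pooled 9 replicates, most of them UNC0638, with 6 residual degrees of freedom. With the dye-swapped replicates of WIZ siRNA and UNC0638 alone, which are all in 1 set of arrays by their background noise, 2850 features (9.98%) passed, 1688 lower (5.91%) and 1162 higher (4.07%), and these held all 183. With dye as a term in a fit of single arrays 968 (3.39%) passed, 742 lower (2.6%) and 226 higher (0.792%), of which 182 were among the 183. From the authors' deposited log2 ratios 30 passed, all lower and all among the 183. The excess of falls was not seen in every setting. With the WIZ siRNA replicates alone 3529 features were higher and 3243 lower. With the WIZ siRNA RNA in Cy3 alone 5419 were higher and 5344 lower, and with it in Cy5 alone 819 and 1012. Without replicate 1 of WIZ siRNA 39 features passed and without replicate 2 20 did, and 17 and 15 of these belonged to the 183. WIZ, NEFH, VGF, TMEM121B, CHGA, DISP2, KCNC1, CABP7, RBFOX3 and CRADD passed with either replicate left out. At the edge of the threshold, PODXL, ZSCAN18 and PCDH1 lay just inside at an adjusted p of 0.05, and SMAGP (0.0514), NBN (0.0516) and CRYBA2 (0.0516) just outside.

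The mean ratios of the 2 dye orientations had opposite signs for most features. Across all 28548 features the log2 ratios of the same RNA pair in opposite orientations correlated at -0.483 in replicate 1 and -0.356 in replicate 2, while arrays of the same orientation correlated at 0.882 (WIZ siRNA RNA in Cy3) and 0.76 (in Cy5) between replicates. A feature's dye response is shared by arrays of 1 orientation, and it cancels in the mean of both only where its size is equal in both. The ratio was larger in size with WIZ siRNA RNA in Cy3 for 17170 features and with it in Cy5 for 11378. The averaged replicates correlated at 0.749, and the part of a remaining dye response in that value was not tested. The share with opposite signs was 69.9% over all features, and 74.8% of the 9516 brightest. The median of the dye component, taken as the size of an orientation's distance from the mean of both, was 0.14, against 0.07 for the size of the ratio itself. These correlations are across features, which are not independent replicates.

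**Figure D1:**
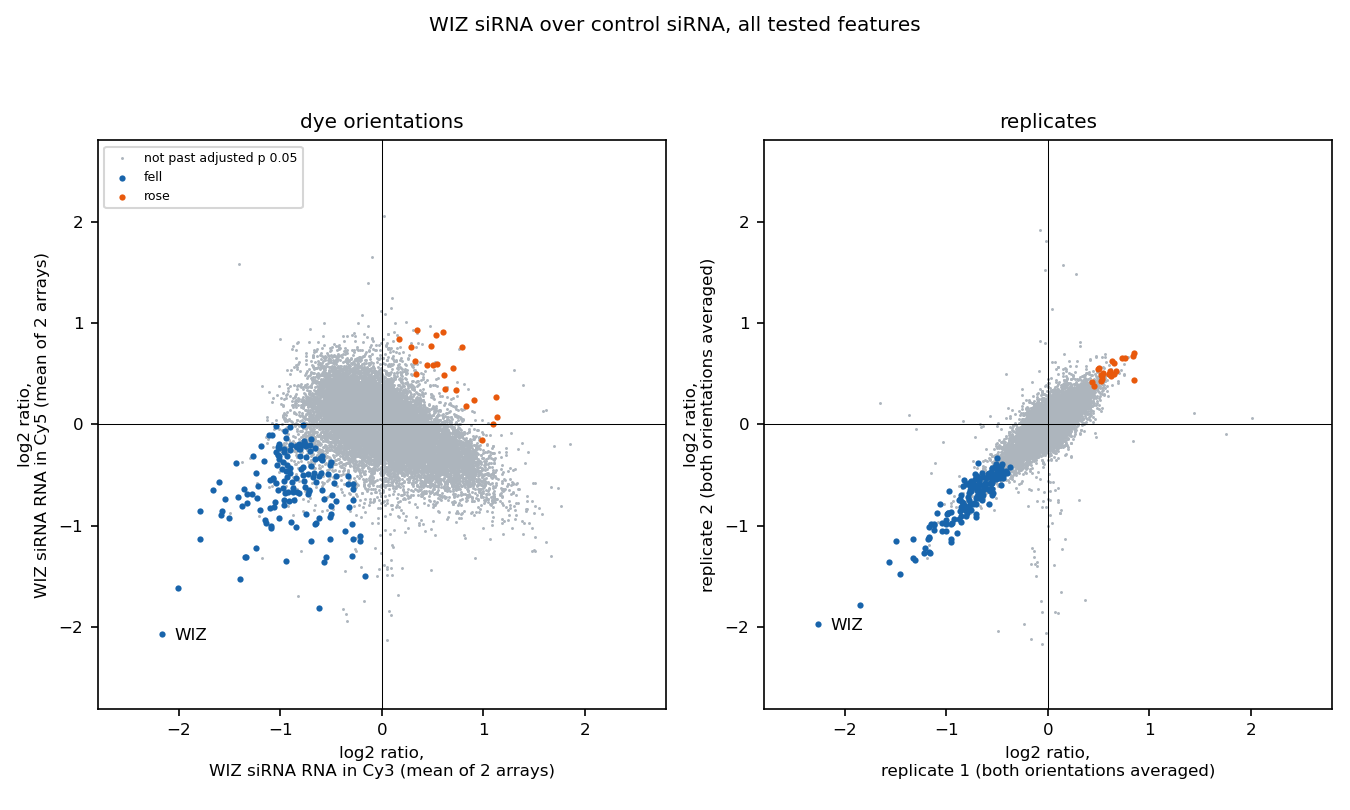
Each point is a tested feature, and both axes are log2 ratios of WIZ siRNA over control siRNA. The left panel sets the mean with WIZ siRNA RNA in Cy3 against the mean with it in Cy5, where grey features run from upper left to lower right; the right panel sets replicate 1 against replicate 2, where they run along the diagonal. Blue features (160) fell and orange features (23) rose at an adjusted p below 0.05.

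Of the 183 changed features, 178 (97.3%) had the same sign on all 4 arrays, compared with 16.2% of all features; being called on the mean of both orientations favours such features. The 5 exceptions were GABBR2, a GABA-B receptor subunit, CTSO, a lysosomal cysteine protease, the zinc finger gene ZXDB, the small GTPase RAB4B and the synaptic vesicle protein SV2A. RAB4B read 1.09 and 0.89 with WIZ siRNA RNA in Cy3 and -0.24 and -0.06 with it in Cy5, and was the only changed feature whose orientation means had opposite signs. SV2A read 1.27 and 0.92 against -0.02 and 0.04, so its rise of 0.55 (adjusted p = 0.0424) rests on 1 orientation. CTSO read -1.17 and -0.92 in Cy3 against 0.04 and -0.06 in Cy5. Among the falls, 123 of 160 were larger in size with WIZ siRNA RNA in Cy3, where their median was -0.88, against -0.58 with it in Cy5. The rises had medians of 0.60 and 0.56.

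Transcripts of WIZ's partners did not pass the test. Of 42 genes of the G9a/GLP complex and of H3K9 methylation, all tested, WIZ was the only 1 that changed (2.38%), and the list median was 0.01. EHMT1 read -0.13 and -0.11 in Cy3 and -0.11 and -0.09 in Cy5, a mean of -0.11 (SE 0.125), while its other 2 probes read 0.23 and 0.32. EHMT2 was dominated by the dye, at 1.23 and 0.73 in Cy3 and -0.56 and -0.17 in Cy5, and its mean of 0.31 had an SE of 0.132 (adjusted p = 0.587). CTBP1, a corepressor that binds WIZ, behaved alike, at 0.94 and 0.70 in Cy3 and -0.47 and -0.37 in Cy5 (mean 0.20, SE 0.159). The means were -0.09 for CTBP2 (SE 0.13; another probe at 0.14), 0.20 for ZNF644 (SE 0.188; another probe at -0.06), which encodes a zinc finger partner of the complex, and -0.09 for the chromodomain protein CDYL (SE 0.193). Of the 22 named genes with a probe placed by its coordinates within 1 Mb of the WIZ probe, none passed the test. Their values ran from -0.36 to 0.21 with a median of -0.00. Coordinates were given for 15661 of the 42405 probes, so neighbouring genes whose probes lack them are not in this set.

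Axonal cytoskeleton genes held the largest fall after WIZ itself. Of 40 listed genes for neurofilaments, microtubules and the axon, all tested, 5 fell and none rose (12.5%, against 0.641% of all features), with a list median of -0.09. This and the other lists hold named genes only and were chosen with earlier results of these data known. Of the 18584 features with a symbol, 168 changed, a larger share than that of all features. NEFH, the heavy neurofilament subunit, read -1.96 and -2.06 with WIZ siRNA RNA in Cy3 and -1.74 and -1.49 with it in Cy5. No array of the 4 came near 0, and the mean of -1.81 (SD 0.0548, n = 2; SE 0.0847) left 28.4% of control (limma, adjusted p = 8.05e-05). That value is from the brighter of its probes, at chr22:29887194-29887253 on build 37.1, and the other probe read -0.36. STMN3, a stathmin that binds tubulin dimers, read -0.58 and -0.66 in Cy3 and -1.74 and -1.88 in Cy5, a mean of -1.21 (SE 0.171), with no overlap between orientations. MAP6, which stabilises microtubules against cold, fell by 1.03 (another probe at -0.47), INA, the internexin subunit of neurofilaments, by 0.75, and DPYSL4, of the collapsin response mediator family, by 0.77 (another probe at -0.10) (adjusted p of 0.00181, 0.0101 and 0.0263).

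Other members of that list were lower without passing. CRMP1 lay at -0.75, -0.83, -1.41 and -1.08 (adjusted p = 0.0552), TUBB3, the neuronal beta tubulin, at a mean of -0.66 (adjusted p = 0.153) and NEFM, the medium neurofilament subunit, at -0.40 (adjusted p = 0.103). NEFL, the light subunit, did not behave alike on its arrays: it read -1.10 and 0.75 in Cy3 and 0.28 and 0.24 in Cy5, a mean of 0.04. MAP2 was low only with WIZ siRNA RNA in Cy3, at -0.90 and -0.97 against 0.07 and 0.02.

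The dense-core granule genes VGF and CHGA fell. These organelles store peptides and amines for regulated release. The list of 35 genes held granule and neuropeptide genes and also the adaptor genes BEX1 and BEX2. Of these, 24 passed the filter on dim probes, 3 fell (12.5%, against 0.641% of all features), BEX1 among them, and none rose, with a list median of -0.06. VGF, a granin that is cut into signalling peptides, read -1.91 and -1.67 in Cy3 and -1.23 and -1.04 in Cy5, a mean of -1.46 (SD 0.152, n = 2; SE 0.0925; 36.3% of control; adjusted p = 0.000481). CHGA, chromogranin A, read -1.59 and -1.56 in Cy3 and -0.83 and -0.88 in Cy5, a mean of -1.22 (SE 0.0812; 43% of control; adjusted p = 0.000524). Both were low on every array, and lower with the WIZ siRNA RNA in Cy3. BEX1, a small adaptor protein of neural and endocrine cells, fell by 0.55, at -0.96 and -0.82 against -0.19 and -0.21. SCG3 (-0.64, adjusted p = 0.196) and CHGB (-0.53, adjusted p = 0.229) were below 0 on all 4 arrays without passing.

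The promoters of VGF and CHGA, shown because these granule genes fell together, each hold a full cAMP response element, the palindrome bound by CREB. The sequences are the 250 bases before the RefSeq start on GRCh38.p14, 5′ to 3′ along the gene. Capitals mark motifs found by script on either strand. They are the response element itself, TGACGTCA, and the GC box bound by SP1, searched as GGGCGG. The E-box of basic helix-loop-helix factors was searched as CACGTG, and the TATA box that positions transcription starts was searched as TATAAA. The left part of the REST site, TTCAGCACC, and the cores of the NRF1 and CTCF sites were searched as well. The shorter core of the response element, TGACG, and the right part of the REST site, GGACAG, were counted but are not capitalised. Neighbouring matches can touch, as the first pair of GC boxes in VGF does. VGF lies on the minus strand at chr7:101165570-101165819 and CHGA on the plus strand at chr14:92922900-92923149. KCNC1 (chr11:17734531-17734780, plus strand) and BSN (chr3:49554227-49554476, plus strand) are shown as 2 other neuronal genes that fell, and LCP1 (chr13:46182178-46182427, minus strand) as a gene that rose.
VGF: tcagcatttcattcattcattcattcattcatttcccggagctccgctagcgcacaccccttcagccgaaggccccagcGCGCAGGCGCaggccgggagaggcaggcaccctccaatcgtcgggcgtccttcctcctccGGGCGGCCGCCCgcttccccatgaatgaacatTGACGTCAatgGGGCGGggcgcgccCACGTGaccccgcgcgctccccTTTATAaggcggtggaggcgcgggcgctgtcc
CHGA: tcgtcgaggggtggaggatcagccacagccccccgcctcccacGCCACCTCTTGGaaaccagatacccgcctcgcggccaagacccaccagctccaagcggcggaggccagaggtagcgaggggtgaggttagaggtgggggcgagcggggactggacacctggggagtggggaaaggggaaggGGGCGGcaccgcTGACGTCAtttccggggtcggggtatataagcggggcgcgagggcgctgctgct
KCNC1: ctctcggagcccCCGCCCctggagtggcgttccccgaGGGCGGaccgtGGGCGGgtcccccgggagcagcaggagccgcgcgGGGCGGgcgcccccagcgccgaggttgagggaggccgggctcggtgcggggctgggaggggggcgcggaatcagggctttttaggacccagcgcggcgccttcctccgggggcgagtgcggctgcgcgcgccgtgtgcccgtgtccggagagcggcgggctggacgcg
BSN: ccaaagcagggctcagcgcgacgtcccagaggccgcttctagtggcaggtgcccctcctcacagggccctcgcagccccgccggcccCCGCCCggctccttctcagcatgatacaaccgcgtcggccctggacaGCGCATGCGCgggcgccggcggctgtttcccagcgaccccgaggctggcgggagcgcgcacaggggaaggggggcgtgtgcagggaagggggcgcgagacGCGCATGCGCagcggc
LCP1: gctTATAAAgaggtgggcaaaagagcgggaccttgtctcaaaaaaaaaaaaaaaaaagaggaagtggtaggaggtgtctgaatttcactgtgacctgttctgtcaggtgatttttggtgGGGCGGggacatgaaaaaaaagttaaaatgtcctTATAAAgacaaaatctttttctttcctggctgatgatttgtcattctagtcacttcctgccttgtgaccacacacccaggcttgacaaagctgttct

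In VGF the response element lies at bases -79 to -72 from the start and in CHGA at -54 to -47, with a GC box beside each. KCNC1 and BSN hold GC boxes and no response element, and BSN holds an NRF1 core at -116 to -107 and another at -16 to -7. Promoter sequences were found for 100 of the genes that fell, for 10 that rose and for 13640 tested genes in all. The full response element occurred in 5% of the promoters of genes that fell, those of VGF, CHGA, NUBPL, AASDHPPT and STK38L, and in 2.49% of all tested promoters. The shorter core occurred in 29% of the genes that fell, in 2 of the 10 that rose and in 27.1% of all. A GC box occurred in 70% of the genes that fell, in 4 of the 10 that rose and in 60.7% of all, and a CTCF core in 2%, 0 of 10 and 1.28%. The left part of the REST site was found in none of the 110 promoters and in 0.257% of all, and its right part in 13% of the genes that fell, 3 of the 10 that rose and 17.6% of all. An E-box occurred in 10%, 0 of 10 and 8.28%, a TATA box in 7%, 3 of 10 and 7.54% and an NRF1 core in 7%, 1 of 10 and 8.67%. The median GC content was 67.8% for genes that fell, 49.2% for those that rose and 63.6% for all, and the ratio of observed to expected CpG dinucleotides 0.792, 0.404 and 0.776. A match describes the letters of the window, not binding.

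A few genes of the presynaptic terminal fell. Of 51 listed genes for synaptic vesicles and release, 44 were tested, 3 fell and 1 rose (9.09%, against 0.641% of all features), with a list median of -0.02. CPLX1, complexin 1, which clamps vesicle fusion, read -1.23 and -1.45 in Cy3 and -1.39 and -1.23 in Cy5, a mean of -1.32 (SE 0.119; 40% of control; adjusted p = 0.00161). BSN, the active zone scaffold bassoon, read -1.04 and -1.26 in Cy3 and -0.87 in Cy5 in replicate 1, with replicate means of -0.95 and -1.13 and an overall mean of -1.04 (SE 0.0914; adjusted p = 0.0014). For CPLX1 the orientations overlapped, and for BSN both Cy3 values lay below both Cy5 values. SYP, the vesicle protein synaptophysin, read -0.20 and -0.39 in Cy3 and -1.21 and -1.38 in Cy5, a mean of -0.80 (SE 0.104), and SV2A is the member that rose, in the 1 orientation described above. SYT1 and SNAP25, of the fusion machinery, had means of 0.32 (SE 0.37) and 0.07 (SE 0.12).

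Ion channel genes showed 3 falls and no rise among 47 tested of 55 listed (6.38%, against 0.641% of all features), with a list median of -0.02. KCNC1, which encodes the fast delayed-rectifier potassium channel Kv3.1, read -1.31 and -1.17 in Cy3 and -1.35 and -1.08 in Cy5, a mean of -1.23 (SE 0.0999; 42.7% of control; adjusted p = 0.00113). A second probe of KCNC1 read -1.09. SCN3B, an auxiliary sodium channel subunit, read -1.51 and -1.36 in Cy3 and -0.20 and -0.56 in Cy5, a mean of -0.91 (SE 0.118), so that its size depended on the dye. CACNA1B, the pore of the N-type calcium channel, lay between -0.51 and -0.73 on all 4 arrays, with a mean of -0.61 (SE 0.0869; adjusted p = 0.0198). Its probe was above background in the WIZ siRNA RNA on 2 of 4 arrays, and another probe read -0.13. The potassium channel gene KCNN2, with a mean of -0.56, was below 0 on all 4 arrays and did not pass (adjusted p = 0.0631).

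Among 52 tested of 60 listed neural transcription and RNA-binding factors, 2 fell and 1 rose (5.77%, against 0.641% of all features), with a list median of -0.05. RBFOX3, the splicing factor known as NeuN, read -1.70 and -1.63 in Cy3 and -0.66 and -0.62 in Cy5, a mean of -1.15 (SE 0.0853; 45% of control; adjusted p = 0.000834). INSM2, a zinc finger factor of neuroendocrine cells, read -0.56, -0.87, -0.60 and -0.70, but its probe was not well above background on any array in the WIZ siRNA RNA and on 3 of 4 in the control RNA. It fell at least 1.57-fold by channel levels (adjusted p = 0.0334), each RNA being in each dye on the same number of arrays. MSI2, an RNA-binding protein of stem cells, rose by 0.71, at 0.53, 0.55, 0.99 and 0.77 (SE 0.102; adjusted p = 0.0203), while its second probe read 0.08. SOX3 (-0.57), MYT1 (-0.38) and INSM1 (-0.36) were below 0 on all 4 arrays and did not pass.

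The 30 largest falls also held genes outside these lists. TMEM121B, a membrane protein, read -1.37, -1.44, -1.54 and -1.50, with a mean of -1.46 (SD 0.00965, n = 2; SE 0.0936). FBXL16, an F-box protein, read -2.02 and -1.57 in Cy3 and -0.98 and -0.73 in Cy5, a mean of -1.32 (SE 0.124). CABP7, a neuronal calcium-binding protein, fell by 1.22, DLGAP3, a postsynaptic scaffold, by 1.06 and AP3B2, a neuronal subunit of the AP-3 adaptor, by 0.93. DISP2, of the dispatched family, fell by 1.24 by its brighter probe and read -0.04 by the other. KIF3B, a motor subunit of kinesin 2, fell by 1.14 and the actin-severing protein CFL2 by 1.08, the latter from -1.67 and -1.53 in Cy3 against -0.58 and -0.55 in Cy5. NDFIP2, an adaptor of NEDD4 ubiquitin ligases, fell by 1.14, TMEM145 by 1.06, LINC00515, NUBPL and STK33 by 1.00, 1.00 and 0.98, CPPED1 by 0.98, CRADD by 0.97, LOC284939 and TMEM198 by 0.96 each and LRRC24 by 0.94. The CRADD probe is listed in the files with a second symbol, so its value is not specific to CRADD. The 50 axon guidance and neural adhesion genes tested of 52 listed held no call by limma, with 9 lower and 1 higher at an unadjusted p under 0.05. Over all 28548 features 1465 were lower and 844 higher by that measure. The largest means in size in this list were those of NRG2, a neuregulin, at -0.43 (adjusted p = 0.158, another probe at 0.00) and UNC5B, a netrin receptor, at -0.41 (adjusted p = 0.462). Most called genes of the neural lists did not pass without replicate 1 or without replicate 2 of WIZ siRNA.

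**Figure D2:**
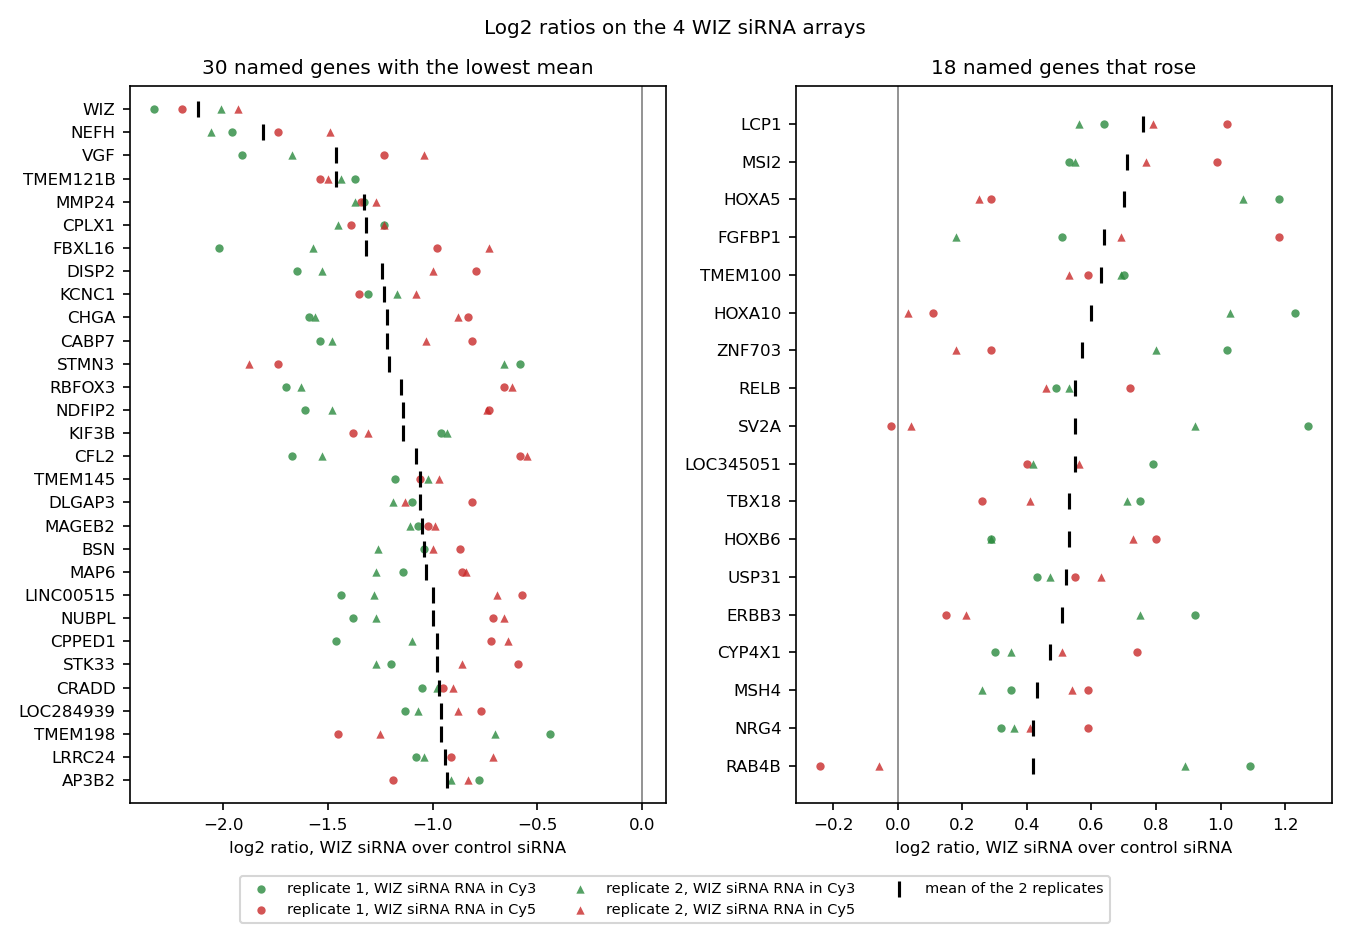
Log2 ratios of WIZ siRNA over control siRNA on each of the 4 arrays (circles replicate 1, triangles replicate 2, green with WIZ siRNA RNA in Cy3, red in Cy5; the black bar is the mean of the 2 replicates). The left panel has the 30 named genes with the lowest mean and the right panel 18 named genes that rose; all values on the left lie below 0, and on the right SV2A and RAB4B cross 0.

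Genes outside the neural lists also fell. The share of all features that changed, to set beside the list shares given here, was 0.641%. MMP24, a membrane-type matrix metalloproteinase of neural tissue, was the 1 of 33 tested matrix and mesenchymal genes to change (3.03%), at -1.33, -1.37, -1.34 and -1.27 (mean -1.33, SE 0.126; adjusted p = 0.00206). The cyclin CCND1, which drives entry into S phase, was the 1 of 46 tested S phase and mitosis genes to change (2.17%). It read -0.58 and -0.52 in Cy3 and -1.55 and -1.05 in Cy5, a mean of -0.93 (SE 0.0856; 52.6% of control; adjusted p = 0.00181), while 39 of the 46 genes had a positive mean and the list median was 0.05. In the list of CDK inhibitors and p53 targets, 1 of 35 fell (2.86%), TP53I3, a p53-induced oxidoreductase, by 0.59 (adjusted p = 0.0451), and the CDK inhibitor CDKN1C, which is imprinted, stood at -1.30, -1.13, -0.98 and -0.82 without passing (SE 0.219; adjusted p = 0.0884). MAGEB2, a cancer-testis antigen and the 1 of 22 tested germline genes to change (4.55%), fell by 1.05 with all 4 arrays between -0.99 and -1.11. WNT3A, a Wnt ligand, fell by 0.77 (1 of 46 tested Wnt genes, 2.17%; adjusted p = 0.021) by its brighter probe and read 0.05 by the other. PCDHB2 fell by 0.51, the 1 of 26 tested clustered protocadherins to change (3.85%), by a probe that the files list for PCDHB3 too. In the NF-kappaB list 1 of 27 genes fell and 1 rose (7.41%): TNFAIP2, a gene induced by TNF, fell by 0.73 (adjusted p = 0.0171) and RELB, a subunit of NF-kappaB, rose by 0.55 (adjusted p = 0.0358).

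A few HOX genes rose. HOX genes encode homeodomain factors in 4 clusters that pattern the body axis, and 36 of 39 were tested. HOXA5, HOXA10 and HOXB6 rose and none fell (8.33%, against 0.641% of all features), and the list median was 0.22 against 0.01 over all features. HOXA5 read 1.18 and 1.07 in Cy3 and 0.29 and 0.25 in Cy5, a mean of 0.70 (SE 0.12; 162% of control; adjusted p = 0.0396). HOXA10 read 1.23 and 1.03 in Cy3 and 0.11 and 0.03 in Cy5, a mean of 0.60 (SE 0.0971; adjusted p = 0.031), with a second probe at 0.23. The dye ran the other way for HOXB6, at 0.29 and 0.29 in Cy3 and 0.80 and 0.73 in Cy5 (mean 0.53, SE 0.0827; adjusted p = 0.0277). The list medians were 0.37 and 0.29 on the Cy3 arrays and 0.07 and 0.10 on the Cy5 arrays. No HOX gene passed without replicate 1 or without replicate 2 of WIZ siRNA, with a replicate block, with median centring or with either set of the authors' ratios. With the dye-swapped replicates alone 17 of the 36 rose and 3 fell. In that fit 4.07% of all features rose and 5.91% fell.

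By cluster, 8 of the 10 tested HOXA genes lay above 0 on all 4 arrays, with a median of 0.36. The HOXB genes followed with a median of 0.27 and 3 of 9 above 0 on all arrays, the HOXD genes with 0.14 and 1 of 8, and the HOXC genes with 0.01 and 0 of 9. The 4 genes of paralog group 13 at the cluster ends had negative means: HOXB13 -0.67 (adjusted p = 0.0631), HOXC13 -0.35 (0.101), HOXA13 -0.24 (0.593) and HOXD13 -0.15 (1). HOXB13, HOXC13 and HOXD13 were below 0 on all 4 arrays, while HOXA13 changed sign with the dye. This grouping was chosen after the values were seen. HOXC4, at the other end of its cluster, read -0.89, -0.78, -0.30 and -0.29 (adjusted p = 0.159).

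**Figure D3:**
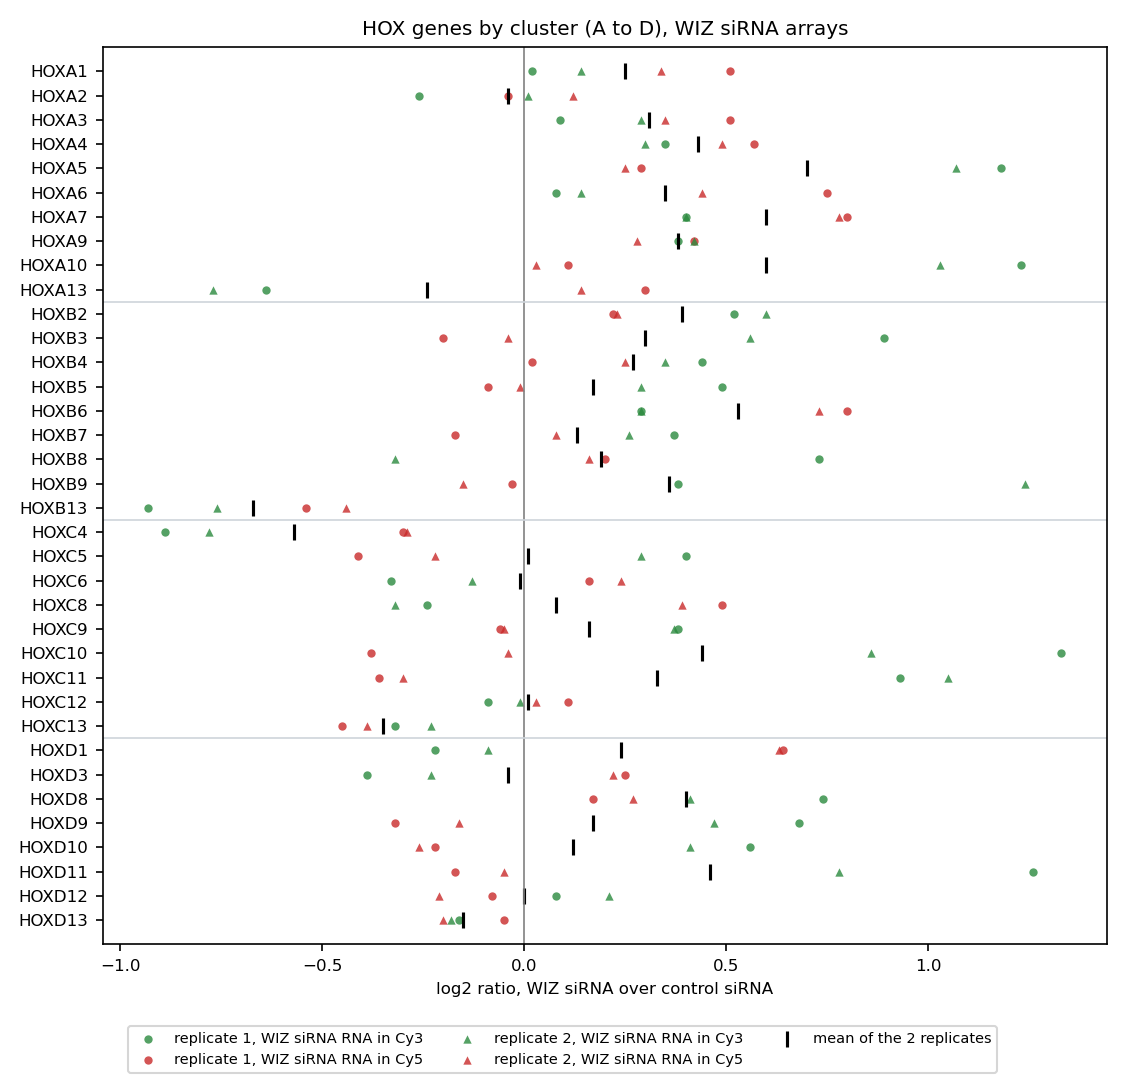
Log2 ratios of WIZ siRNA over control siRNA for the 36 tested HOX genes, by cluster from A at the top to D, on each of the 4 arrays (circles replicate 1, triangles replicate 2, green with WIZ siRNA RNA in Cy3, red in Cy5; the black bar is the mean). Most HOXA genes lie right of 0, and the genes of group 13 have means left of 0.

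The other named rises were few and small. LCP1, an actin-bundling protein of blood cells, read 0.64, 0.56, 1.02 and 0.79, a mean of 0.76 (SE 0.0777; adjusted p = 0.00371). It was the 1 of 21 tested blood cell markers to change (4.76%, against 0.641% of all features), and the list median was 0.04. FGFBP1, a secreted carrier of fibroblast growth factors, rose by 0.64 with arrays from 0.18 to 1.18, and TMEM100, a membrane protein, by 0.63 with arrays from 0.53 to 0.70. The zinc finger factor ZNF703 rose by 0.57, LOC345051 by 0.55, the T-box factor TBX18 by 0.53, USP31, a deubiquitinase, by 0.52 (another probe at 0.01), CYP4X1, a cytochrome P450, by 0.47, MSH4, a meiotic MutS homologue, by 0.43 and the growth factor NRG4 by 0.42. ERBB3, a receptor for neuregulins, rose by 0.51 by its brightest probe while its other 2 probes read -0.04 and -0.03. LOC345051 and MSH4 were above background on 2 of 4 arrays in each RNA, and CYP4X1 on 3 and 2.

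In 3 lists of metabolism and amino acid response the median lay above that of all features (0.01) and no member passed in the main limma fit. The same held for the housekeeping genes (0.04) and the heat shock and unfolded protein genes (0.02). The medians themselves were not tested. With dye as a term 2 cholesterol and fatty acid, 2 serine and ATF4 and 1 glycolysis and hypoxia gene passed, all higher. In that fit 0.792% of all features were higher. With the dye-swapped replicates alone 5, 9 and 4 passed, all higher, where 4.07% of all features were higher. The 34 cholesterol and fatty acid synthesis genes had a median of 0.18, with 25 positive means, 7 genes above 0 on all 4 arrays and none below 0 on all 4. Their medians by array were 0.16 and 0.18 in Cy3 and -0.02 and 0.09 in Cy5, and 7 passed an unadjusted p under 0.05, all higher. INSIG1, the sterol-sensing retention protein, read 0.04 and -0.01 in Cy3 and 0.85 and 0.83 in Cy5 (mean 0.43, adjusted p = 0.103), and MSMO1, a sterol oxidase, had a mean of 0.44 (SE 0.267). The 35 genes of serine synthesis and the ATF4 response had a median of 0.10 (0.35 and 0.21 on the Cy3 arrays, -0.01 and 0.06 on the Cy5 arrays), led by the stress factors DDIT3 (0.55, adjusted p = 0.244) and ATF3 (0.45, adjusted p = 0.211), with 2 at an unadjusted p under 0.05. The 35 glycolysis and hypoxia genes had a median of 0.09 (0.09 and 0.04 on the Cy3 arrays, -0.00 and 0.06 on the Cy5 arrays), 4 of them at an unadjusted p under 0.05, and PFKFB4 (0.51) and SLC2A3 (0.45, another probe at 0.08) the largest sizes.

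In the remaining lists no member passed in limma. These included 31 Notch pathway genes (median -0.04; HES5 -0.69, DLL1 -0.43; 1 higher and 6 lower at an unadjusted p under 0.05), 37 imprinted genes (median -0.04; 3 higher and 8 lower unadjusted; PHLDA2 -0.62), 39 interferon-stimulated genes (median -0.03; 4 unadjusted; IFI44L 0.51, IFI35 0.50) and 29 epithelial and kidney genes (median -0.01; 5 unadjusted; CDH3 -0.42, KRT18 -0.41). Over all 28548 features 844 were higher and 1465 lower at an unadjusted p under 0.05. The shares in the Notch, imprinted, and epithelial and kidney lists were each above that of all features, and that of the interferon-stimulated genes was near it. These shares were not tested. With dye as a term 5 of the 31 Notch genes and 6 of the 37 imprinted genes passed, all lower. In that fit 2 epithelial and kidney genes passed as lower, and interferon-stimulated genes passed as 2 higher and 1 lower. Over all 28548 features, 742 (2.6%) were lower and 226 (0.792%) higher with that term. Without that term no member passed among 32 heat shock and unfolded protein genes (0.02; 2 unadjusted; DNAJB4 -0.60, DNAJB9 0.47), 20 small-RNA genes (-0.01; 1 unadjusted; AGO4 0.31, TNRC6B 0.27), 11 liver markers (-0.00; none unadjusted; MAT1A 0.13, APOA1 -0.15) or 29 housekeeping genes (0.04; 1 unadjusted; TUBB 0.38, REEP5 0.20). TUBB, a beta tubulin, shows the dye component in a housekeeping gene, at 1.19 and 0.74 in Cy3 and -0.35 and -0.04 in Cy5, by a probe that the files list with a second symbol.

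**Figure D4:**
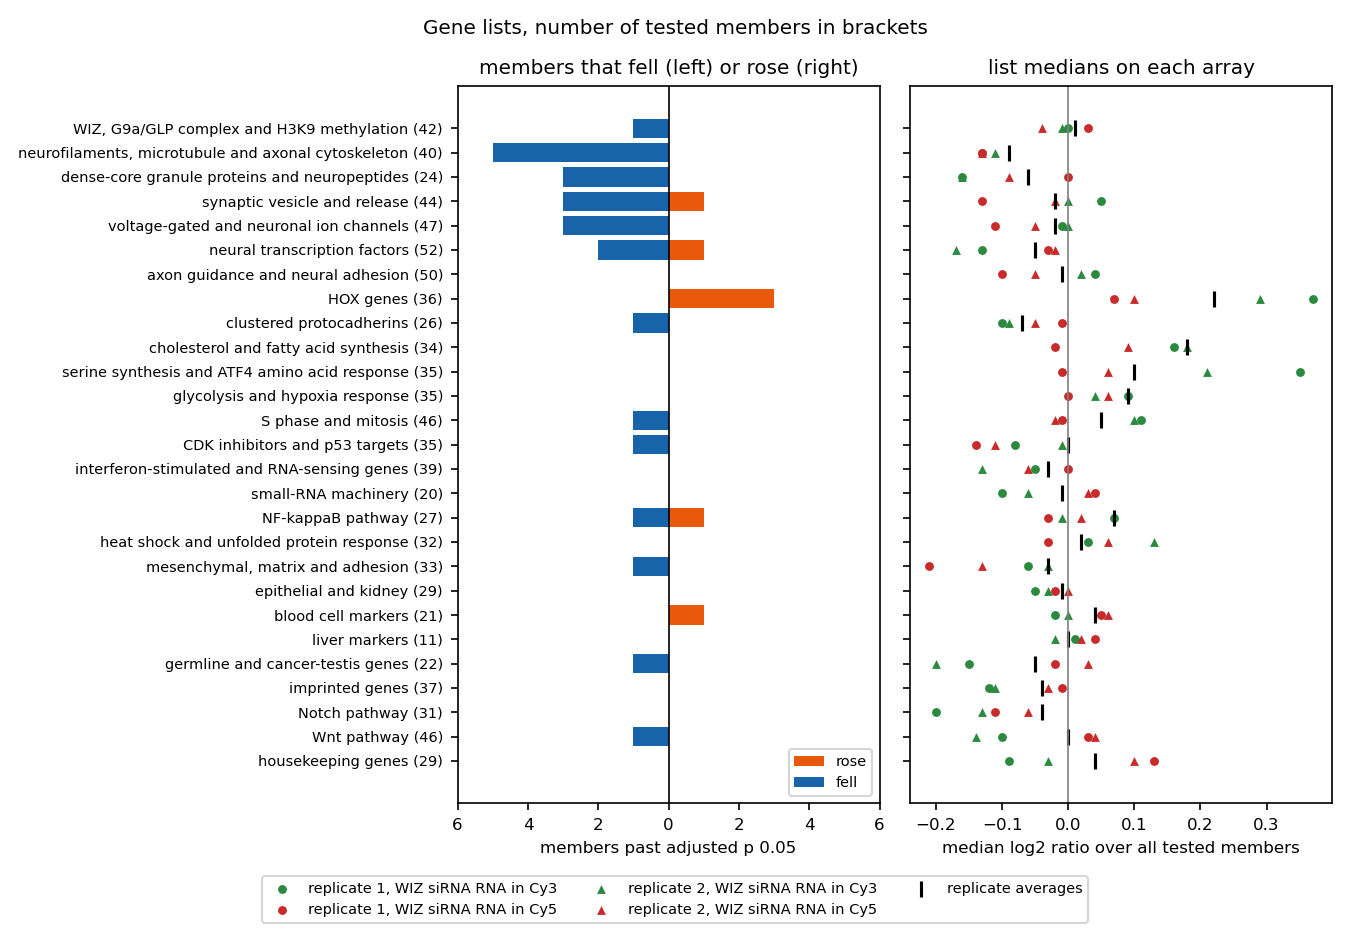
The left panel counts, for each gene list, the members that fell (blue, leftward) or rose (orange, rightward) at an adjusted p below 0.05, with the number tested in brackets. The right panel gives the median log2 ratio of all tested members on each of the 4 arrays (circles replicate 1, triangles replicate 2, green Cy3, red Cy5) and of the replicate averages (black bar); 5 cytoskeleton genes fell, 3 HOX genes rose, and HOX medians lie right of 0 on all 4 arrays.

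The difference between WIZ siRNA and UNC0638 was tested for each feature. The contrast of the treatment means passed for 244 features (0.855%), 216 lower (0.757%) and 28 higher (0.0981%) under WIZ siRNA, and for 101 of the 183 features that changed under WIZ siRNA. It keeps the difference in time (48 h and 72 h), in vehicle and in transfection within it. Of the 5 UNC0638 replicates, 3 were hybridised in 1 dye orientation alone and lie in the other set of arrays by background noise, so dye and array set enter the contrast too. With the array set as a term, an alternative chosen after seeing the data, 152 features differed. With the dye-swapped replicates alone 1309 features differed, and without replicate 1 or 2 of WIZ siRNA 48 and 27. NEFH differed by -2.12 (SE 0.1; adjusted p = 8.73e-05), its 5 UNC0638 replicates lying between 0.18 and 0.44, and FBXL16 by -2.06 (SE 0.147), with UNC0638 replicates from 0.59 to 0.88. CHGA differed by -1.89 (SE 0.0961), with UNC0638 replicates from 0.53 to 0.83. For each of the 3 genes every UNC0638 replicate was above 0 and every WIZ siRNA array below.

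The largest differences also held genes that moved under UNC0638 rather than under WIZ siRNA. ALOX15B, a lipoxygenase, stood at 0.18 under WIZ siRNA and 2.44 under UNC0638 (adjusted p of the difference 0.0119), and LYG2, of the lysozyme G family, at -0.31 and 1.62 (0.02). In the other direction, WIZ siRNA lay above UNC0638 for the homeobox genes NKX6-2 (0.39 and -1.10) and HOXB2 (0.39 and -0.57), for PLCXD1 (0.45 and -0.43) and the retinal reductase DHRS3 (0.35 and -0.46), and for SP5, a Wnt-responsive zinc finger factor (0.26 and -0.56). None of these 7 genes passed the test against control siRNA itself.

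Of the 183 changed features, 55 also changed under UNC0638, which is 30.1% of the WIZ siRNA calls and 5.26% of the 1045 UNC0638 calls (3.66% of features). The direction was the same for 31 (27 lower in both, 4 higher in both) and opposite for 24 (23 lower under WIZ siRNA and higher under UNC0638, and 1 the reverse). CCND1, MAGEB2 and WNT3A were among those lower in both, at -0.35, -0.52 and -0.87 under UNC0638, and LCP1 and FGFBP1 among those higher in both, at 0.73 and 0.95.

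G9a siRNA was hybridised in 1 dye orientation alone, so its dye component is not averaged out, and its arrays belong to another set by background noise. Treatment, dye and array set cannot be told apart in that comparison, in which 5743 features (20.1%) differed between the knockdowns, or 764 with the WIZ siRNA RNA in Cy5 alone. The labels do not say whether both knockdowns shared control RNA, so the values are only set side by side. NEFH stood at 0.23 and 0.15 in the G9a siRNA replicates, VGF at -0.12 and -0.35, CPLX1 at -0.43 and -0.71, KCNC1 at -0.11 and -0.24, CHGA at 0.40 and 0.39 and BSN at 0.10 and 0.15. STMN3, at -1.11 and -1.29, was low there too, and NDFIP2, at 0.89 and 1.44, had the opposite sign. HOXA5, which rose under WIZ siRNA, stood at -0.64 and -1.01.

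**Figure D5:**
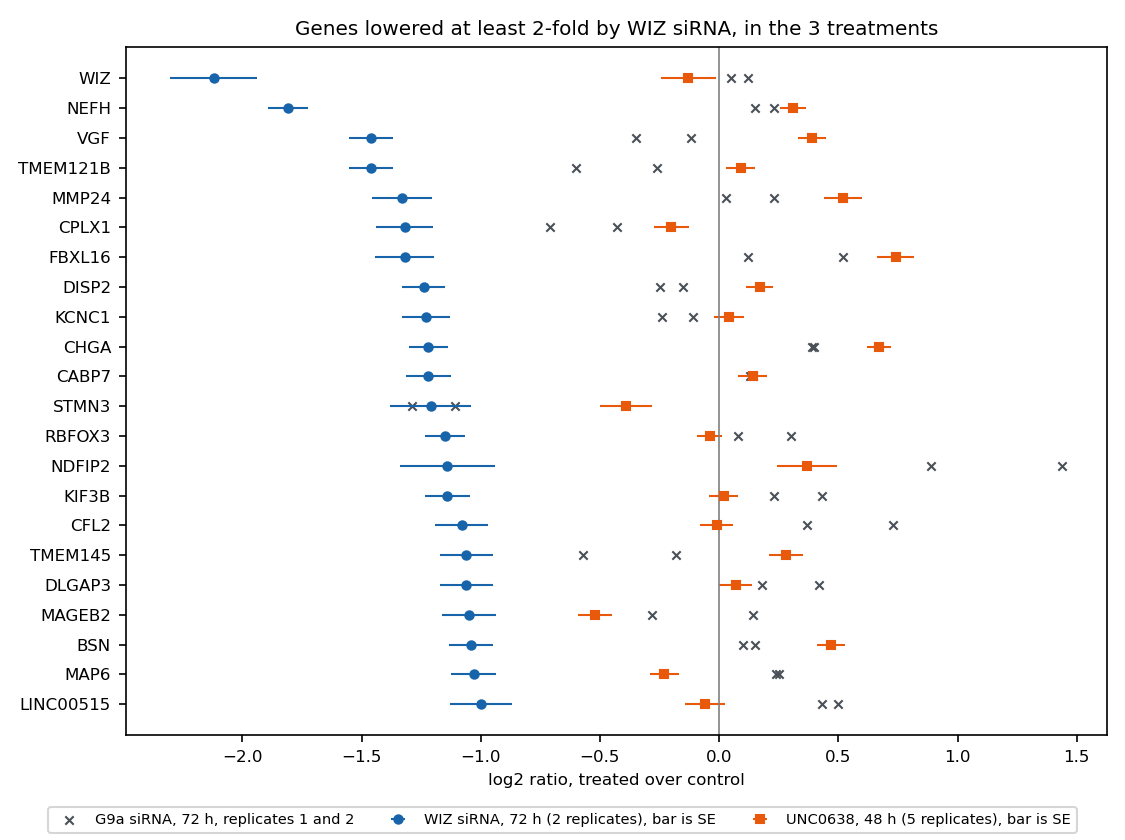
Log2 ratios of treated over control RNA for the 22 named genes lowered at least 2-fold by WIZ siRNA: WIZ siRNA (blue circles, mean of 2 replicates with the SE of the fit), UNC0638 (orange squares, mean of 5 replicates with SE) and the 2 G9a siRNA replicates (crosses). All blue means lie at or below a 2-fold fall, while the UNC0638 means range from -0.52 to 0.74.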

How the data were processed

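Total RNA was hybridised to 2-colour Agilent 8x60K arrays. The deposited intensities are pixel means (spots) and medians (local background) for each dye, per the file headers. The authors also deposited a log2 ratio for each spot and, for the series, a table of log10 ratios, both used as alternatives. The log10 table gave control over treated on the WIZ siRNA arrays and was turned; its centring, and the submitters' software, are not given in the sources used here. Background was corrected by normexp (offset 50) and arrays by loess, with weight 0 for control spots, in limma 3.58.1 (R 4.3.3). Ratios were turned to treated over control by the dye labels, and the 2 arrays of a replicate averaged. Probes above background (2.6 SDs) on at least 50% of the arrays of an RNA group were kept (34143), and the brightest per gene tested (28548 features, 18584 with a symbol). One limma fit (lmFit, eBayes) held 9 replicates with a mean per treatment, 6 residual and 3.37 prior degrees of freedom; p-values were adjusted by Benjamini-Hochberg over all features, and features below 0.05 are said to rise, fall or change. SD is over the 2 replicates and SE that of the fit. The fit was tested on simulated data.

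RefSeq accessions named 25519 probes, and 801 probes list several symbols. Probe coordinates are those of the files (build 37.1); promoters are from RefSeq (GRCh38.p14). The members, gene lists and rule for named genes were chosen with earlier results of these data known. Named were WIZ and 6 partners, the 30 lowest and up to 25 highest called genes, called members of each list (otherwise the 2 largest in size), called genes with opposed orientations, and the 5 largest differences from UNC0638 each way; genes beyond these were named after their values were seen. A few genes that this rule takes in are not reported here.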

Additional observations from a re-analysis of the deposited data

Results flagged for a closer look

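For 22 named genes the effects of WIZ siRNA and UNC0638 had opposite directions, each past its own test. The difference between them passed too (limma contrast), but genes chosen by opposite calls in the same fit favour that, so it is no independent evidence. The values below are log2 ratios under WIZ siRNA minus those under UNC0638. Among genes of granules, axons and synapses the difference was -2.12 for NEFH, -1.89 for CHGA, -1.85 for VGF, -1.52 for AP3B2 and -1.51 for BSN. For the adaptor gene BEX1 the difference was -1.72. Among genes of neuronal signalling it was -1.81 for CAMK2N2, an inhibitor of the kinase CaMKII that stood at -0.83 and 0.98 under the 2 treatments, -1.42 for NMNAT2, an axonal NAD synthase, -1.38 for SCN3B, -1.01 for GABBR2, -0.99 for the G protein subunit GNG4, -0.94 for CACNA1B and -0.91 for the calcium sensor CABP1. It was -2.06 for FBXL16, -1.85 for MMP24, -1.61 for ASPHD1, -1.37 for the RNase ZC3H12D, -1.16 for the lipid phosphatase INPP5D, -1.03 for PHF21B, -0.69 for CFAP263 and -0.66 for FLJ33065. TBX18 was the only one of the 22 that was higher under WIZ siRNA (0.53) than under UNC0638 (-0.28), a difference of 0.81. Adjusted p-values of these differences ran from 8.73e-05 (NEFH and CHGA) to 0.0127 (CFAP263). The UNC0638 mean includes 3 replicates in 1 dye orientation and in the other array set. The part of dye, array set, dose, time, vehicle and transfection in these differences was not tested.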

How the results depend on the processing

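The fall of WIZ RNA passed under all 16 alternatives that gave a value for it, from -2.26 to -1.97 without replicate 2 or 1. The log10 table holds no value for it. Counts of changed features against control siRNA (183), of features that differ from UNC0638 (244) and from G9a siRNA (5743) depended on the setting. They were 30, 74 and 3502 with the authors' log2 ratios, 98, 157 and 3667 with the log10 table (17477 features), 968 and 810 with a dye term (the third within 1.5 times), and 1831, 684 and 764 with the WIZ siRNA RNA in Cy5 alone. Settings without G9a siRNA arrays gave 2850 and 1309 with the dye-swapped replicates alone, 10763 and 5038 with the WIZ siRNA RNA in Cy3 alone, and 6772 with the WIZ siRNA replicates alone, where the test rests on 1 residual and 6.21 prior degrees of freedom. Scaling between arrays gave 2404 differences from G9a siRNA. Leaving out a WIZ siRNA replicate gave 20 to 39, 27 to 48 and 4 to 23, with the lone replicate assumed to vary like the others. Replicate numbers 1 and 2 recur across treatments. The WIZ siRNA differences of replicates 1 and 2 correlated at 0.00459 with those of UNC0638 and at -0.0311 with those of G9a siRNA over 28548 features. Those of UNC0638 and G9a siRNA correlated at 0.106. Such values cannot show whether replicates of the same number were handled together, since each treatment gives a single difference. A replicate block gave 76 and 131. The array set as a term, added after seeing the data, gave 152 differences from UNC0638. No background correction, median centring, no filter, a stricter filter and the median of probes kept all 3 counts within 1.5 times. Of 61 named changed genes other than WIZ, 1 reversed: RAB4B at -0.15 with the WIZ siRNA RNA in Cy5 alone. All 61 passed with the dye-swapped replicates alone and 60 with a dye term, but 34 with the replicate block, 21 with the authors' log2 ratios, and 13 and 11 without replicate 1 and 2. The slide as a block was not run, since the files name no slide. For all of these the cause was not tested.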

Other observations

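Further single genes fell in the limma fit. They were picked after their values were seen, from no fixed list, so they say nothing about a group. BCAT2, the mitochondrial branched-chain aminotransferase, fell by 0.88 and SLC25A24, a carrier of ATP-Mg and phosphate, by 0.79. The import channel subunit TIMM17A fell by 0.71, the magnesium channel MRS2 by 0.63, the folate enzyme MTHFD1L and the acetyl-CoA synthetase ACSS1 by 0.52 each and COX16, an assembly factor of cytochrome oxidase, by 0.49. PBRM1, a subunit of the PBAF remodeller, fell by 0.70, the nuclear receptor NR2F6 by 0.90, the methyltransferase PRDM16 by 0.67 and TADA3, of histone acetyltransferase complexes, by 0.54. Among secreted and surface proteins, those with lower values included the inhibin subunit INHBB (-0.86), the chemokine CXCL12 (-0.63), the urokinase PLAU (-0.64), Indian hedgehog, IHH (-0.58), and the adhesion receptor ADGRB1 (-0.82).

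Of the 27 features lower under both WIZ siRNA and UNC0638, 6 zinc finger genes are given here, also picked after their values were seen and with no count over all zinc finger genes. The respective log2 ratios were -0.80 and -1.18 for ZSCAN18, -0.67 and -0.36 for ZNF594, -0.57 and -0.49 for ZNF790, -0.50 and -0.50 for ZNF649, -0.45 and -0.72 for ZNF256 and -0.43 and -0.52 for ZNF585B. The contrast of the treatments did not pass for any of the 6, with adjusted p from 0.322 to 1, which does not show that the effects are alike.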
